A study of Mus musculus with 11 samples.

Results

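Expression of 9 genes tied to the cardiac conduction system and to pacemaking was described in mouse hearts: Cntn2, Hcn2, Hcn4, Cacna1g, Cacna1h, Gja5, Gjc1, Tbx3 and Unc80. They were found by symbol among the 55487 gene identifiers of the deposited count table, and all 9 passed the filter on low counts that left 23779 genes. These genes were selected on their levels across the same 3 groups that are shown here, so their differences between groups are a description, with no p-value, and counts of those that pass a threshold are printed only beside the same count over all genes. All animals were female C57BL/6NTac mice, with no engineered allele named in the labels, and began their diet at 8 weeks of age. Control mice (4 libraries) ate a diet with 10.4% of its energy from fat for 24 weeks. Obese mice (4 libraries) ate for the same time an obesogenic diet, made of solid food with 60.3% of its energy from fat and of sweetened condensed milk, and were gavaged with 10% PEG400 as vehicle. Treated mice (3 libraries) ate the obesogenic diet and, from week 16, were gavaged on 3 days in a row each week with 5 mg/kg dasatinib plus 50 mg/kg quercetin in the same vehicle, a pair of drugs used to remove senescent cells. The sources used here do not state whether control mice were gavaged, which chambers of the heart were taken, or whether each library came from its own animal.

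The heartbeat starts in the sinoatrial node, passes the atrioventricular node and spreads through the bundle of His and the Purkinje fibres. Nodal cells depolarize on their own through the hyperpolarization-activated HCN channels, T-type calcium channels and sodium leak currents, while connexins form the gap junctions that carry the impulse from cell to cell. T-box transcription factors such as Tbx3 keep nodal cells apart from the working muscle, and the adhesion protein contactin 2 marks cells of the conduction system.

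Library totals ran from 73.1 to 103.29 M counts in the control group, from 52.74 to 67.25 M in the obese group and from 64.2 to 72.28 M in the treated group. Genes of the mitochondrial chromosome took 28.2% to 32.3% of counts in control, 21.4% to 24.5% in obese and 17.8% to 22.4% in treated libraries, so control libraries did not overlap the others in this share either, and its part in the results was not tested. Markers of ventricular muscle (4 genes) summed to 3356–5956 CPM in control, 1693–3270 CPM in obese and 1797–3439 CPM in treated libraries, where CPM is a gene's counts as a share of the library total, scaled by the trimmed mean of M-values (TMM). They were thus abundant in every library. By the edgeR test 2 of the 4 were called lower in obese against control (Myl2 and Myl3, beside 15.7% of all tested genes). In treated against control 2 were lower as well (Myl3 and Irx4, beside 8.39% of all tested genes). Markers of atrial muscle differed widely between libraries of the same group. Their 8 genes summed to 44.2–114 CPM in the control group, 24.8–2240 CPM in the obese group and 58.3–5892 CPM in the treated group, and the high values came from obese replicate 3 and treated replicates 2 and 3. None of the 8 was called in any comparison by the edgeR test, with medians of 4.43 (obese minus control), 2.09 (treated minus obese) and 6.52 (treated minus control) on the log2 scale. Sln, a regulator of the calcium pump in atrial muscle, was at 0 counts in control replicate 1 and at 275 CPM in treated replicate 3. In bulk tissue, fewer cells of a type and less RNA per cell cannot be told apart.

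In the mouse genome build GRCm38, as annotated by GENCODE, the genes lay at chr1:132509427-132543256 (Cntn2, minus strand), chr10:79716634-79736108 (Hcn2, plus), chr9:58823412-58863175 (Hcn4, plus), chr11:94408391-94474198 (Cacna1g, minus), chr17:25374285-25433783 (Cacna1h, minus), chr3:96904693-97077416 (Gja5, plus), chr11:102799579-102819700 (Gjc1, minus), chr5:119670669-119684724 (Tbx3, plus) and chr1:66468367-66699148 (Unc80, plus). All 9 are protein-coding, and between 52.9% (Tbx3) and 96.7% (Gja5) of their span is intronic. Exons of 3 of them overlap a gene on the opposite strand: 1.7% of the Tbx3 exon bases lie in Tbx3os1, 1.6% of those of Cacna1h in Tpsg1 and 2.9% of those of Gja5 in Gpr89. The sources used here do not state whether counting used strand, so part of the counts of these 3 genes may belong to the partner. The size of that part was not measured. Over all libraries Gpr89 had 15409 counts and Gja5 9105, while Tbx3os1 had 1354 and Tpsg1 58.

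Promoter windows from RefSeq (GRCm38.p6), covering the 250 bases before the RefSeq start of a gene, matched 5 of the 9 genes by symbol: Cntn2, Hcn2, Hcn4, Gja5 and Unc80. Except for Hcn2, these starts differ from those of the GENCODE spans given above. The windows of Gja5 and Cntn2 lie inside those spans. Those of Hcn4 and Unc80 end upstream of the GENCODE start without adjoining it. Positions below are counted from the RefSeq start. Cntn2 and Unc80 are shown because they had the largest differences from the control group, Hcn4 and Gja5 as a pacemaker channel and a connexin whose levels moved with theirs across libraries. The sequences run 5′ to 3′ on the strand of the gene, and capitals mark a match to the core of the NKX2-5 motif (AAGTG, or CACTT when read on the opposite strand).
Cntn2, chr1:132542941-132543028, minus strand: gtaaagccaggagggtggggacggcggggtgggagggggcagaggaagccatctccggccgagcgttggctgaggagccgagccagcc
Unc80, chr1:66467684-66467933, plus strand: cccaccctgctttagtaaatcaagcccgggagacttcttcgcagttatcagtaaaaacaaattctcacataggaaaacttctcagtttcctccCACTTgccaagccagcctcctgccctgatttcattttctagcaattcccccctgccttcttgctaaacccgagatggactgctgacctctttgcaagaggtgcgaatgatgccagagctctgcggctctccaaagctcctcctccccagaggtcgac
Hcn4, chr9:58822699-58822948, plus strand: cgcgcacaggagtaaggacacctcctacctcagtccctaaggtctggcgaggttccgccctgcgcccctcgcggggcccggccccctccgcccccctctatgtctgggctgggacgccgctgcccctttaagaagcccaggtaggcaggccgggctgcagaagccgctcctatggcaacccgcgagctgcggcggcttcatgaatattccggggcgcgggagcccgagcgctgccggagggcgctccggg
Gja5, chr3:97032152-97032401, plus strand: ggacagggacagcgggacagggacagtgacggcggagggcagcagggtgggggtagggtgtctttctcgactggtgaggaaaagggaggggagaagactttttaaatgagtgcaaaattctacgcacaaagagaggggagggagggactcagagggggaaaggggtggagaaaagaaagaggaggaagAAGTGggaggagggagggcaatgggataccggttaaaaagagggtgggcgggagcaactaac
The Cntn2 stretch holds the 88 bases nearest to the start, because an exon of another annotated transcript lies further upstream. The NKX2-5 core was found on the minus strand at positions -157 to -153 from the start of Unc80 and -212 to -208 from that of Cntn2 (outside the 88 bases), and on the plus strand at -62 to -58 from that of Gja5. It is a short motif that 40.7% of 32851 RefSeq promoter windows hold on either strand. The E-box CACCTG (17.2% of windows) was found in the Hcn2 window at -98 to -93 on the minus strand, where it overlaps no other motif searched. The T-box site GGTGTGA (3.33% of windows), the GATA core AGATAA (9.99%), the MEF2 motif (2.92%) and the neuron-restrictive silencer element (0.00304%) had no match in these 5 windows. Base composition differed among them: Hcn4 held 71.2% G or C with 25 CpG dinucleotides, Hcn2 70.4% with 16, Cntn2 61.2% with 10, Gja5 56.4% with 7 and Unc80 51.2% with 6, against medians of 52.4% and 6 over all windows.

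Per kilobase of exon, the order of the 9 genes differed between the groups. In control hearts the highest levels were those of Tbx3 (4.28 ± 0.522 CPM per kb), Gjc1 (4.02 ± 0.194) and Hcn2 (3.82 ± 0.719), all SD over n = 4, and these 3 lay within about 1 SD of each other. Cacna1h (1.75 ± 0.514), Cacna1g (1.3 ± 0.304), Hcn4 (1.23 ± 0.374) and Gja5 (1.16 ± 0.208) formed a lower set whose neighbours did not differ beyond their spread. Cntn2 (0.182 ± 0.138) and Unc80 (0.0163 ± 0.00265) were the lowest, and in control hearts Unc80 rested on only 14 to 26 counts per library. In obese hearts Cacna1h (5.54 ± 4.93), Cacna1g (4.51 ± 1.63), Cntn2 (4.39 ± 4.03) and Hcn4 (3.88 ± 1.77) reached means per kb above those of Tbx3 (3.71 ± 1), Gjc1 (3.36 ± 0.432) and Hcn2 (2.9 ± 0.849), with spreads that overlapped throughout. In treated hearts Cacna1h led at 11.8 ± 8.51 CPM per kb (SD, n = 3), and Unc80 remained the lowest at 0.378 ± 0.291.

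**Figure D1:**
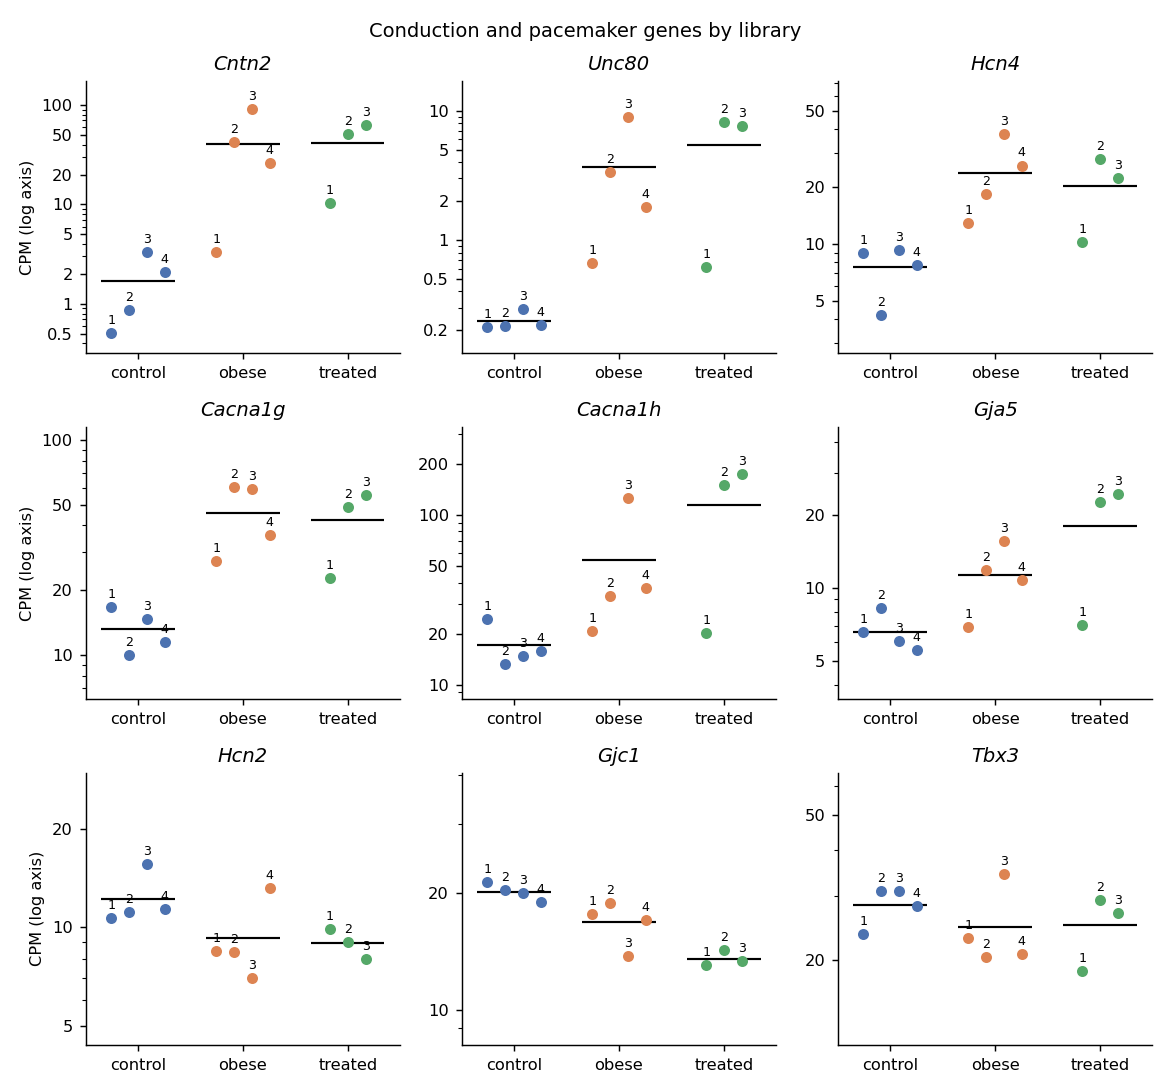
Level of each of the 9 genes in each library, in TMM-scaled CPM on a log axis, by group; points carry the replicate number and the line is the group mean. Cntn2 lies between 0.51 and 3.33 CPM in the control libraries and reaches 91.8 CPM in obese replicate 3, while Gjc1 stays between 13.1 and 21.3 CPM in all 11 libraries.

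Cntn2, which encodes the cell adhesion protein contactin 2, had the largest difference of the 9 genes between obese and control hearts. Its level was 0.51, 0.86, 3.33 and 2.09 CPM in control replicates 1 to 4, 3.34, 42.2, 91.8 and 25.9 CPM in obese replicates 1 to 4, and 10.2, 51.4 and 63.4 CPM in treated replicates 1 to 3. Obese replicate 1 lay just above the highest control library, and all other obese and treated libraries lay well above it. The means were 1.7 ± 1.28 (SD, n = 4), 40.8 ± 37.5 (SD, n = 4) and 41.7 ± 27.9 CPM (SD, n = 3). The fitted log2 fold change was 4.57 (SE 1.12) for obese minus control, 0.03 (SE 1.02) for treated minus obese and 4.60 (SE 1.15) for treated minus control. The standard errors reflect a within-group spread that was wider than that of 98.5% of tested genes.

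The channels of the pacemaker current differed from each other. Hcn4, the main HCN channel of the sinoatrial node, stood at 8.92, 4.25, 9.24 and 7.77 CPM in the 4 control libraries, at 12.8, 18.4, 37.9 and 25.8 CPM in the 4 obese libraries and at 10.2, 27.9 and 22.3 CPM in the 3 treated libraries. Every obese and treated library was above every control library, and the treated range overlapped the obese one. Its log2 fold change was 1.65 (SE 0.4) for obese minus control, which is 3.14-fold, -0.24 (SE 0.421) for treated minus obese and 1.42 (SE 0.42) for treated minus control. Hcn2, an HCN channel that working muscle also expresses, was at 10.7, 11.1, 15.6 and 11.4 CPM in control libraries, 8.48, 8.43, 7 and 13.2 CPM in obese libraries and 9.86, 9.02 and 7.98 CPM in treated libraries. The obese range overlapped the control range through obese replicate 4, and the treated libraries were all below the controls. Its log2 fold change was -0.39 (SE 0.188) for obese minus control and -0.45 (SE 0.205) for treated minus control with TMM scaling, but 0.004 and -0.04 when libraries were scaled by their totals alone. That scaling moved the median of all genes by 0.42 (obese minus control) and 0.416 (treated minus control) on the log2 scale, and relative to that median Hcn2 was lower by a similar amount under both scalings (-0.50 and -0.52 for obese minus control).

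The ratio of Hcn4 to Hcn2 per kb of exon, which does not depend on the scaling of libraries, was 0.326 ± 0.0991 in control hearts (SD, n = 4), 1.44 ± 0.933 in obese hearts (SD, n = 4) and 1.21 ± 0.58 in treated hearts (SD, n = 3). The highest control value was 0.437 and the lowest obese and treated values were 0.79 and 0.541, so the control group did not overlap either of the others. Hcn4 was thus below Hcn2 in all 4 control libraries and above it in 3 of 4 obese and 2 of 3 treated libraries. Hcn3, another HCN channel gene, was near the limit of detection, at no more than 0.281 CPM in any library.

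**Figure D2:**
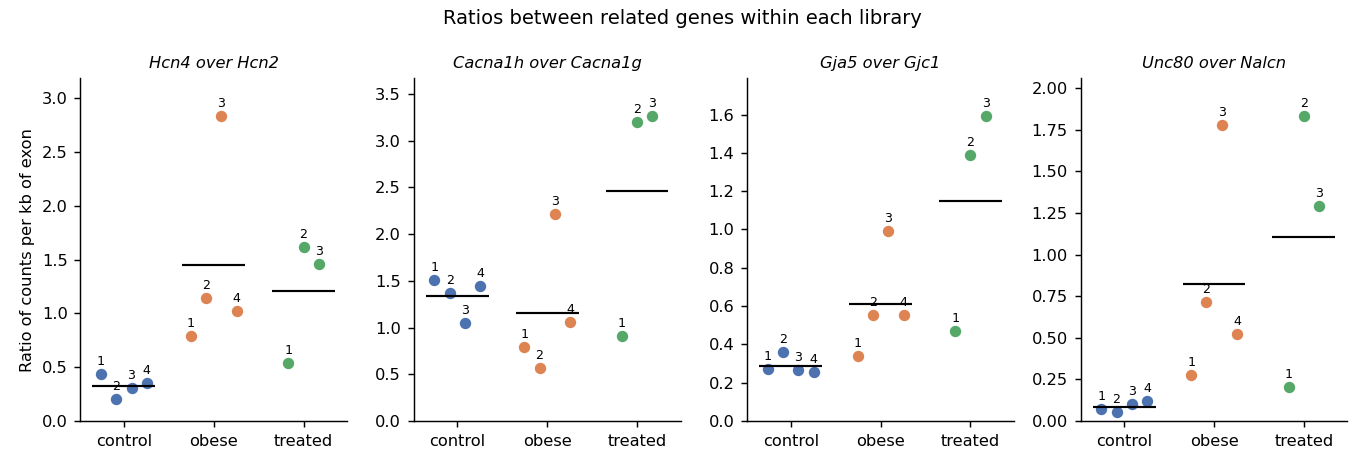
Ratio of one gene to another within each library, both per kb of exon, for Hcn4 over Hcn2, Cacna1h over Cacna1g, Gja5 over Gjc1 and Unc80 over Nalcn; points carry the replicate number and the line is the group mean. Hcn4 over Hcn2 runs from 0.2 to 0.437 in control libraries and from 0.541 upward in all obese and treated libraries.

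Both T-type calcium channel genes had higher means in obese than in control hearts, but with different patterns over libraries. Cacna1g, which encodes Cav3.1, the T-type channel linked to pacemaking in the mouse, was at 16.7, 9.94, 14.7 and 11.4 CPM in control libraries, 27.3, 60.6, 58.8 and 36.2 CPM in obese libraries and 22.8, 48.8 and 55.5 CPM in treated libraries. No obese or treated library reached down to the control range. The log2 fold change of Cacna1g was 1.79 (SE 0.328) for obese minus control, or 3.46-fold, -0.11 (SE 0.343) for treated minus obese and 1.68 (SE 0.344) for treated minus control. Cacna1h, which encodes Cav3.2, was at 24.4, 13.2, 14.8 and 15.8 CPM in control libraries, 20.7, 33.2, 126 and 37 CPM in obese libraries and 20.1, 151 and 174 CPM in treated libraries. Obese replicate 1 and treated replicate 1 lay inside the control range, whereas obese replicate 3 and treated replicates 2 and 3 stood far above all the rest. The log2 fold change of Cacna1h was 1.67 (SE 0.739) for obese minus control, 1.09 (SE 0.769) for treated minus obese and 2.75 (SE 0.796) for treated minus control. Per kb of exon, the ratio of Cacna1h to Cacna1g was 1.34 ± 0.205 in control hearts (SD, n = 4), 1.16 ± 0.734 in obese hearts (SD, n = 4) and 2.46 ± 1.34 in treated hearts (SD, n = 3), and these ranges overlapped.

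Unc80 encodes a large scaffold subunit of the sodium leak channel complex formed with Nalcn and Unc79. It was at 0.212, 0.215, 0.292 and 0.218 CPM in control libraries (15, 15, 26 and 14 counts), 0.668, 3.35, 8.95 and 1.79 CPM in obese libraries (39, 213, 560 and 123 counts) and 0.621, 8.14 and 7.59 CPM in treated libraries (42, 643 and 623 counts). All 7 obese and treated libraries were above the 4 controls, and within each of these groups the spread was more than 10-fold. The log2 fold change of Unc80 was 3.96 (SE 0.973) for obese minus control, or 15.5-fold, 0.56 (SE 0.865) for treated minus obese and 4.52 (SE 1.01) for treated minus control. Nalcn, the pore of that channel, was at 3.04 ± 1 CPM in control, 3.97 ± 1.21 CPM in obese hearts (both SD, n = 4), against 4.57 ± 1.44 CPM with treatment (SD, n = 3), and was not called (edgeR adjusted p = 0.329 for obese against control and 0.208 for treated against control). Unc79 was at 0.129 to 0.739 CPM and was not called either (edgeR adjusted p = 0.114 for obese against control). The ratio of Unc80 to Nalcn per kb of exon was 0.0856 ± 0.0307 in control hearts (SD, n = 4), 0.823 ± 0.663 in obese hearts (SD, n = 4) and 1.11 ± 0.828 in treated hearts (SD, n = 3). The highest control ratio was 0.121 and the lowest obese and treated ratios were 0.274 and 0.202.

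The 2 connexins differed from the control group in opposite directions with TMM scaling, but for obese minus control not by library totals alone. Gja5 encodes connexin 40, the gap junction protein of atrial muscle, of the fast conduction system and of arterial endothelium. It was at 6.58, 8.32, 6.06 and 5.59 CPM in control libraries, 6.9, 11.9, 15.7 and 10.8 CPM in obese libraries and 7.04, 22.8 and 24.4 CPM in treated libraries. Obese replicate 1 and treated replicate 1 were inside the control range, and all other obese and treated libraries were above it. The log2 fold change of Gja5 was 0.77 (SE 0.352) for obese minus control, 0.67 (SE 0.373) for treated minus obese and 1.45 (SE 0.375) for treated minus control. Gjc1, which encodes connexin 45, the low-conductance gap junction protein of the nodes, was at 21.3, 20.2, 19.9 and 18.9 CPM in control libraries, 17.6, 18.8, 13.8 and 17 CPM in obese libraries and 13.1, 14.2 and 13.4 CPM in treated libraries. All obese and treated libraries were below the controls, and the treated range overlapped the obese range only at obese replicate 3. The log2 fold change of Gjc1 was -0.26 (SE 0.107) for obese minus control, -0.31 (SE 0.116) for treated minus obese and -0.57 (SE 0.116) for treated minus control. Scaled by library totals alone it was 0.16 for obese minus control and -0.15 for treated minus control, while relative to the median of all genes it was -0.37 and -0.62 under both scalings. The spread of Gjc1 within groups was small, at percentile 9.5 of all tested genes. Per kb of exon, the ratio of Gja5 to Gjc1 was 0.287 ± 0.0473 in control (SD, n = 4), 0.609 ± 0.274 in obese (SD, n = 4) and 1.15 ± 0.597 in treated hearts (SD, n = 3).

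Tbx3, the T-box repressor that keeps working-muscle genes low in nodal cells, had the smallest fold changes of the 9 with TMM scaling. It was at 23.5, 30.8, 30.9 and 28.1 CPM in control libraries, 23, 20.3, 34.4 and 20.8 CPM in obese libraries and 18.6, 29.1 and 26.8 CPM in treated libraries. The 3 groups overlapped. The log2 fold change of Tbx3 was -0.20 (SE 0.181) for obese minus control, 0.02 (SE 0.196) for treated minus obese and -0.19 (SE 0.196) for treated minus control, and by library totals alone the first and the last became 0.22 and 0.23. Relative to the median of all genes, the first and the last were -0.31 and -0.24 under both scalings. The highest Tbx3 levels in the obese and treated groups were in obese replicate 3 and treated replicates 2 and 3, the libraries with the most atrial markers.

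Since the genes were chosen on these levels, the following counts describe them beside all genes, and nothing is read from them. By the edgeR quasi-likelihood test at an adjusted p under 0.05, 4 of the 9 (Cntn2, Hcn4, Cacna1g and Unc80) were higher and 0 lower in obese against control hearts, where 14.4% of all tested genes were higher and 15.7% lower. In treated against control hearts 6 were higher (the same 4 with Cacna1h and Gja5) and 1 lower (Gjc1), where 7.43% and 8.39% of all genes were. In treated against obese hearts 0 passed in either direction, and 0% of all genes were higher and 0% lower. At an unadjusted p under 0.05 that comparison had 2425 genes, 1 of the 9 among them, and DESeq2 called 131 genes and limma voom 1 gene, none of them one of the 9. In CPM, groups did not overlap for 5 of the 9 in obese against control, 0 in treated against obese and 6 in treated against control, where 28.5%, 10.1% and 27.9% of all tested genes did not overlap. The median log2 fold changes of the 9 were 1.65, 0.02 and 1.45 in these 3 comparisons, beside 0.11, -0.01 and 0.05 over all tested genes. The comparisons share libraries and are not independent of each other.

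Single libraries set several of these values. Without obese replicate 3 the obese minus control log2 fold change fell from 4.57 to 3.80 for Cntn2, from 3.96 to 3.03 for Unc80 and from 1.67 to 0.83 for Cacna1h. Omission of the same library moved the treated minus obese value from 0.03 to 0.81 for Cntn2, from 0.56 to 1.49 for Unc80 and from 1.09 to 1.92 for Cacna1h. In treated against control, 3760 of all tested genes were called with all libraries, and 1011 to 4652 over the 11 omissions of a library. Without treated replicate 3, which gave the 1011, 0 of the 6 higher genes passed the threshold. Hcn4 and Cacna1h each fell below it in 8 of 11 omissions (any control library, obese replicate 2 or 4, treated replicate 2 or 3), with log2 fold changes of 1.10 to 1.52 for Hcn4 and 2.32 to 2.97 for Cacna1h. Cntn2 did so in 6 (any control library, treated replicate 2 or 3; 4.17 to 5.18), Gja5 in 5 (control replicate 1, 3 or 4, treated replicate 2 or 3; 1.17 to 1.44), Unc80 in 3 (control replicate 1 or 4, treated replicate 3; 4.21 to 4.49) and Cacna1g in 1 (treated replicate 3; 1.44). Because the genes were chosen on these levels, a call kept under omission is no support for a difference.

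Levels of several of the 9 genes moved together with the atrial markers across libraries. As a description over 11 libraries that share their processing, Pearson's r between the deviations from the group means of a gene and of the mean log2 CPM of the 8 atrial markers was 0.9 for Cntn2 and Unc80, 0.84 for Cacna1h, 0.82 for Gja5, 0.78 for Hcn4, 0.76 for Tbx3 and 0.67 for Cacna1g. It was -0.49 for Gjc1 and -0.18 for Hcn2. Spearman's rho ran from 0.58 (Cacna1g) to 0.84 (Cacna1h and Tbx3) for these 7 genes. Without the 2 libraries farthest from the median of the atrial deviations, r was 0.81 for Cntn2, 0.72 for Unc80, 0.78 for Tbx3, 0.63 for Cacna1h, 0.52 for Hcn4, 0.50 for Gja5 and 0.19 for Cacna1g, so the relation of Cacna1g rested on those 2 libraries. For Gjc1 it was then -0.76 and for Hcn2 -0.22.

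**Figure D3:**
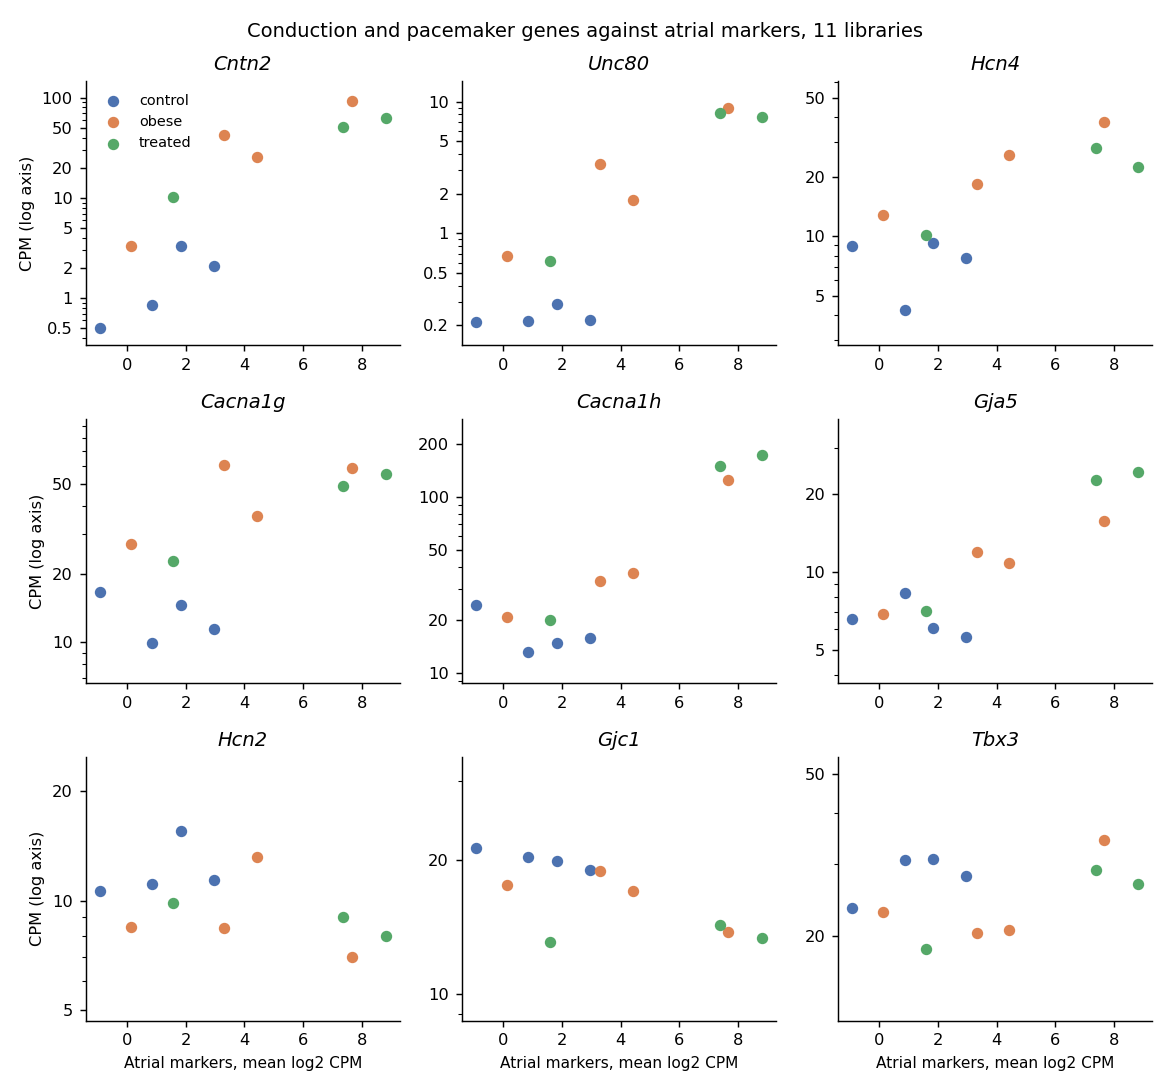
Level of each gene in CPM (log axis) against the mean log2 CPM of 8 atrial muscle markers, 1 point per library, coloured by group. Obese replicate 1 (atrial level 0.14) and treated replicate 1 (1.59) lie within the control range of -0.92 to 2.96 on the horizontal axis, and Cacna1g is above all controls in both.

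Libraries with a similar mean atrial level could be set side by side. Obese replicate 2 and control replicate 4 had atrial levels of 3.32 and 2.96, and Cntn2 was at 42.2 CPM in the first and 2.09 CPM in the other, with Cacna1g at 60.6 and 11.4 CPM. Their single atrial markers were not alike, so the pair is matched only in the mean. Bmp10 was at 1.04 and 23.2 CPM and Stard10 at 10.34 and 14.25 CPM. In contrast, Myl4 was at 27.6 and 7.79 CPM, Myl7 at 17.2 and 5.52 CPM and Dkk3 at 28.3 and 3.92 CPM. Nppa, Sln and Mybphl were also higher in obese replicate 2. Obese replicate 1 and treated replicate 1 lay within the control range of the atrial level. Cntn2 was at 3.34 and 10.2 CPM in these 2 libraries, the former next to the highest control value of 3.33 CPM. Cacna1g was at 27.3 and 22.8 CPM there, above the highest control value of 16.7 CPM. Hcn4 was at 12.8 and 10.2 CPM, above the highest control value of 9.24 CPM, and Unc80 at 0.668 and 0.621 CPM, above 0.292 CPM. Cacna1h and Gja5 were inside their control ranges in both.

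Without obese replicate 3 and treated replicates 2 and 3, the libraries with the highest atrial level, the log2 fold change of obese minus control was 3.79 (SE 1.03) for Cntn2, 3.03 (SE 0.466) for Unc80, 1.65 (SE 0.258) for Cacna1g and 1.34 (SE 0.281) for Hcn4. In that fit the value of Cacna1h was 0.83 (SE 0.229) and that of Gja5 0.57 (SE 0.204). That of Tbx3 was -0.41 (SE 0.126). With the atrial level as a covariate in all 11 libraries the obese minus control values were 2.93 (SE 0.564) for Cntn2, 2.22 (SE 0.441) for Unc80, 1.41 (SE 0.281) for Cacna1g and 1.06 (SE 0.277) for Hcn4. They were 0.33 (SE 0.506) for Cacna1h, 0.22 (SE 0.24) for Gja5 and -0.43 (SE 0.145) for Tbx3. For treated minus control, 0 of the 9 were called with that covariate, where calls over all tested genes fell from 3760 to 2630. In the 8 libraries a single treated library remains and is assumed to vary like the other groups. The values for Cacna1h were then 0.66 with the covariate and 0.25 in the 8 libraries, against 2.75 in all libraries, and for Gja5 0.44 and 0.09 against 1.45. In the 8 libraries the treated minus obese values of Cntn2, Unc80, Cacna1h and Gja5 turned to -1.21, -1.63, -0.59 and -0.48.

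**Figure D4:**
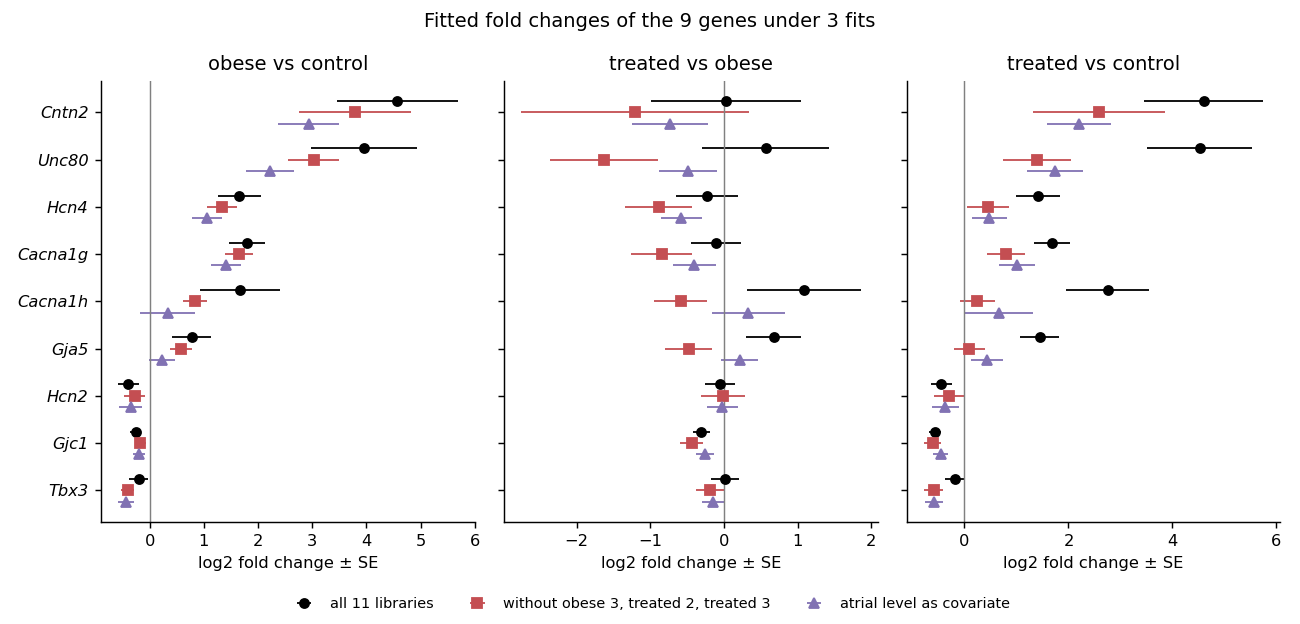
Fitted log2 fold changes with standard errors of the 9 genes in the 3 comparisons, from all 11 libraries (circles), from 8 libraries without obese replicate 3 and treated replicates 2 and 3 (squares) and with the atrial level as a covariate (triangles). The obese minus control values of Cntn2, Unc80, Hcn4 and Cacna1g stay above 1 in all 3 fits, and those of treated minus control for Cacna1h and Gja5 come near 0 in the 8 libraries.

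Markers of other cell types are given beside these levels, with the calls of the edgeR test. Schwann cell markers (7 genes) summed to 17.7–25.8 CPM in control, 21.8–49.6 CPM in obese hearts and 26.7–38.9 CPM with treatment, and 1 of 7 (14.3%, beside 14.4% of all tested genes) was called higher in obese against control and 0 in treated against control. Neuron markers summed to 8.84–10.7, 7.81–13.5 and 10.6–13.6 CPM. Of the 6 that could be tested, 2 (33.3%, Dbh and Tubb3) were called higher in both of these comparisons, beside 14.4% and 7.43% of all tested genes. The most abundant, Stmn2, was at -0.40 (SE 0.159) in obese minus control and not called. In that comparison 3 of the 6 were above 0, with a median log2 fold change of -0.05. Th, Chat, Slc18a3 and Snap25 were among those too low to test. The 4 adipocyte markers were called higher in both comparisons, beside 14.4% and 7.43% of all tested genes. Their sum was at most 0.258 CPM in control and reached 7.1 CPM in obese hearts and 8.69 CPM with treatment. Mesothelial markers summed to 4.9–6.57, 8.35–14.6 and 7.17–42 CPM, with 1 of 6 called higher in obese against control (Wt1, 16.7%, near the 14.4% of all tested genes). In treated against control 3 of 6 were called higher (Upk1b, Msln and Lrrn4, 50%, beside 7.43% of all tested genes). The mesothelial sums were 42 and 26.5 CPM in treated replicates 2 and 3, the libraries with the highest Cacna1h and Gja5, and 7.17 CPM in treated replicate 1. Markers of the endothelium, whose arterial cells express connexin 40, summed to 521–578, 382–440 and 407–445 CPM. Of these, 1 of 8 was called lower in obese against control (Cdh5, 12.5%) and 3 in treated against control (37.5%). Mural markers summed to 978–1168, 682–779 and 565–810 CPM, with 2 of 7 called lower in obese against control (Rgs5 and Kcnj8, 28.6%) and 3 in treated against control (42.9%). Of all tested genes 15.7% and 8.39% were lower in these 2 comparisons. None of these markers was at 0 in all libraries, and the part of these cell types in the levels of the 9 genes was not tested. The intronic share, counts in genes annotated as sense-intronic or awaiting experimental evidence, was 0.286% to 0.59% in control, 0.663% to 0.811% in obese and 0.509% to 0.671% in treated libraries, so control and obese libraries did not overlap. With that share as a covariate 0 of the 9 genes were called in any comparison. Over all 23779 tested genes, calls fell from 7166 to 121 in obese against control and from 3760 to 510 in treated against control. The values for obese minus control were then 3.99 (SE 2.41) for Cntn2, 3.16 (SE 2.04) for Unc80, 2.33 (SE 0.869) for Hcn4 and 2.03 (SE 0.728) for Cacna1g.

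Some pairs of the 9 followed each other across libraries. After removal of the group means, r over the 11 libraries was 0.93 for Unc80 with Gja5 and with Cacna1h, and 0.89 for Cacna1h with Gja5. It was 0.88 for Cacna1g with Unc80, 0.86 for Hcn4 with Cacna1h and 0.85 for Cntn2 with Unc80. Hcn2 and Gjc1 did not follow that group: their r with Cntn2 was -0.03 and -0.40. Among 12646 genes with a mean of at least 1 CPM, those most like each member over the 11 libraries were Drd2, a dopamine receptor, and Pclo, a presynaptic scaffold protein, for Cntn2 (r = 0.97 for each, 0.91 and 0.93 within groups). For Unc80 they were Sfrp5, a secreted Wnt antagonist, and Cpne5, a calcium-dependent phospholipid-binding protein (0.98 for each, 0.98 and 0.97 within groups). Cacna1g was most like Mdga1 (0.98) and Col16a1 (0.98), and Hcn4 most like Clec11a (0.94) and Mdga1 (0.94). Cacna1h was most like Plekha7 (0.99) and the amino acid transporter gene Slc7a7 (0.99), and Gja5 most like Fras1 (0.98) and Slc7a7 (0.95). Gjc1 was most like Trp53i11 (0.96) and the basement membrane collagen gene Col4a2 (0.95), Tbx3 most like Paox (0.93) and Tdrd3 (0.90), and Hcn2 most like Prkab2 and Bend5 (0.89 for each).

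Beyond the 9, 58 of 64 related genes in 6 lists could be tested. In obese against control hearts 8 rose and 9 fell by the edgeR test (adjusted p under 0.05). These are 13.8% and 15.5% of the list, near the 14.4% and 15.7% of all tested genes, with a median log2 fold change of 0.27 beside 0.11 over all tested genes. In treated against control hearts 11 rose and 6 fell (19.0% and 10.3%, beside 7.43% and 8.39% of all tested genes; median 0.23), and in treated against obese hearts 0 were called (median 0.18). Scaled by library totals alone, the split in obese against control was 24 higher and 3 lower, beside 9061 and 960 of all 23779 tested genes. For treated against control it was 24 higher and 4 lower, beside 6911 and 389 of all tested genes.

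**Figure D5:**
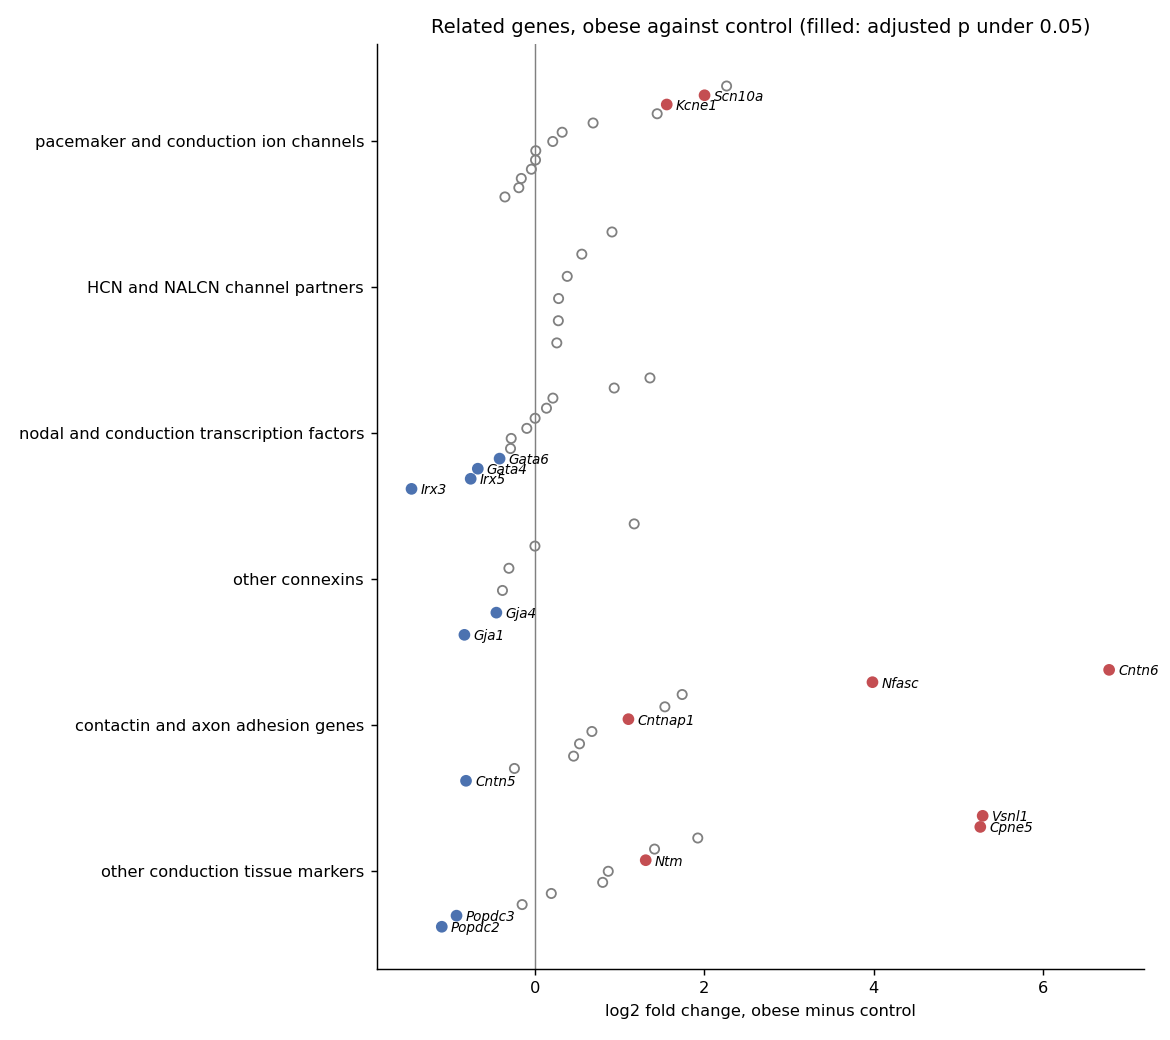
Fitted log2 fold changes, obese minus control, of the 58 tested genes in 6 related lists; filled points passed an adjusted p under 0.05 and carry their symbol. Kcne1 and Scn10a rose among the ion channels, and the 4 called transcription factors lie below 0, of which Gata6 moves to 0.01 when libraries are scaled by their totals. That scaling moved the median of all genes by 0.42. The value of Cntn6 depends on the prior count, because all control libraries were at 0 counts.

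Among 13 tested ion channel genes of pacemaking and conduction, 2 rose (15.4%, near the 14.4% of all tested genes) and 0 fell in obese against control hearts. Scn10a, which encodes the sodium channel Nav1.8, rose from 0.809 ± 0.148 to 3.24 ± 2.13 CPM (SD, n = 4 each), a log2 fold change of 2.00 (SE 0.395, edgeR adjusted p = 0.00302), and was at 3.44 ± 0.39 CPM in treated hearts (SD, n = 3). Kcne1, the beta subunit of the slow potassium channel, rose from 1.01 ± 0.188 to 2.97 ± 1.55 CPM (log2 fold change 1.56, SE 0.364, edgeR adjusted p = 0.00736) and stood at 5.2 ± 2.2 CPM in treated hearts. Both kept their obese against control call with the atrial level as a covariate (edgeR adjusted p = 0.00871 and 0.0203). Of 6 tested partners of the HCN and sodium leak channels, 0 were called in obese against control, the smallest p being that of Kctd3 (log2 fold change 0.26, SE 0.107, edgeR adjusted p = 0.0821). In treated against control 1 rose (16.7%, beside 7.43% of all tested genes), which was Mrvi1, named after its value was seen. The Mrvi1 call was lost in 8 of 11 omissions of a library (any control library, obese replicate 2 or 4, treated replicate 2 or 3), with log2 fold changes of 0.69 to 1.26.

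Of 12 tested transcription factors of the nodes and the conduction system, 0 rose and 4 fell (33.3%, beside 15.7% of all tested genes) in obese against control hearts with TMM scaling. Irx3, a factor of the His-Purkinje network, fell from 32.2 ± 6.59 to 11.7 ± 1.81 CPM (SD, n = 4 each), a log2 fold change of -1.45 (SE 0.187, edgeR adjusted p = 0.000321), and was at 12.7 ± 3.45 CPM in treated hearts (SD, n = 3). It was lower under every scaling. Gata4, a cardiac zinc finger factor, fell from 129 ± 27.4 to 81.2 ± 9.67 CPM (log2 fold change -0.67, SE 0.154, edgeR adjusted p = 0.0065). Irx5 and Gata6, named after their values were seen, had -0.76 and -0.41. By library totals alone Gata4, Irx5 and Gata6 lost their call, with -0.23, -0.34 and 0.01. That scaling moved the median of all genes by 0.42 for obese minus control. The Gata6 call was also lost in 6 of 11 omissions (control replicate 1, 3 or 4, obese replicate 1, 2 or 4), with log2 fold changes of -0.44 to -0.32. Tbx18, a factor of the sinus node head, was at 6.96 ± 0.954, 6.98 ± 0.53 and 6.17 ± 0.719 CPM, and Tbx5 at 47.1 ± 8.55, 54.7 ± 42 and 109 ± 59.7 CPM in control, obese and treated hearts. Neither was called, and the high Tbx5 values were again in obese replicate 3 (117 CPM) and treated replicates 2 and 3 (115 and 166 CPM).

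Of 6 other connexins, 0 rose and 2 fell (33.3%, beside 15.7% of all tested genes) in obese against control hearts with TMM scaling. Gja1, which encodes connexin 43, the main gap junction protein of the working ventricle, fell from 299 ± 72 to 168 ± 35.1 CPM (SD, n = 4 each), a log2 fold change of -0.83 (SE 0.205, edgeR adjusted p = 0.00946), and was at 118 ± 29.2 CPM in treated hearts (SD, n = 3; treated minus control -1.34, SE 0.229, edgeR adjusted p = 0.00359). By library totals alone the obese minus control value was -0.39 and no longer called (edgeR adjusted p = 0.0627). The median of all genes moved by 0.42 under that scaling. Gja4, the endothelial connexin 37, had -0.45 (SE 0.153, edgeR adjusted p = 0.0394), but -0.01 by library totals, and its call was lost in 6 of 11 omissions (control replicate 1, 3 or 4, obese replicate 1 or 4, treated replicate 3), with log2 fold changes of -0.48 to -0.38. Per kb of exon, the ratio of Gja5 to Gja1 was 0.0426 ± 0.018 in control (SD, n = 4), 0.13 ± 0.0724 in obese (SD, n = 4) and 0.275 ± 0.156 in treated hearts (SD, n = 3). The lowest obese ratio was 0.0716 and the highest control ratio 0.068, so these ranges did not overlap.

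Of 10 tested contactin and axon adhesion genes, 3 rose and 1 fell in obese against control hearts (30% and 10%, beside 14.4% and 15.7% of all tested genes). Cntnap1, a partner of contactins at the edges of nodes of Ranvier, rose from 4.55 ± 0.641 to 9.81 ± 1.95 CPM (SD, n = 4 each), with a log2 fold change of 1.10 (SE 0.176, edgeR adjusted p = 0.000925), and kept its call in all 11 omissions. Cntn5 had -0.81 (SE 0.242, edgeR adjusted p = 0.0234), with its call lost in 4 of 11 omissions (control replicate 1 or 4, obese replicate 2 or 3; log2 fold changes of -0.77 to -0.69). The other two were Nfasc and Cntn6, named after their values were seen. Nfasc, an adhesion protein of the axon initial segment, was at 0.439, 0.445, 0.0785 and 0.0936 CPM in control libraries and at 0.308, 4.86, 9.84 and 1.6 CPM in obese libraries. Its call was lost in 7 of 11 omissions (any control library, obese replicate 2 or 3, treated replicate 2), with log2 fold changes of 3.11 to 4.34, and with the atrial level as a covariate. Cntn6 was at 0 counts in all control libraries and at no more than 0.44 CPM in any other library; the call did not survive omission of control replicate 4 or of obese replicate 2 (edgeR adjusted p = 0.051 to 0.0568).

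Of 11 other marker genes of conduction tissue, 3 rose and 2 fell in obese against control hearts (27.3% and 18.2%, beside 14.4% and 15.7% of all tested genes). Popdc3 and Popdc2, cAMP-binding membrane proteins of the Popeye family, fell by 0.92 (SE 0.144, edgeR adjusted p = 0.000806) and by 1.10 (SE 0.175, edgeR adjusted p = 0.000919) on the log2 scale, from 18 ± 3.16 to 9.49 ± 1.53 CPM and from 413 ± 85 to 193 ± 35.4 CPM (SD, n = 4 each). Both were lower under every scaling. Ntm, Vsnl1 and Cpne5, named after their values were seen, were the 3 that rose. Cpne5 was at 0.156, 0.402, 0.404 and 0.312 CPM in control libraries, 0.36, 7.37, 37.2 and 4.31 CPM in obese libraries and 0.872, 24.5 and 35.9 CPM in treated libraries. The call of Cpne5 was lost in 7 of 11 omissions (any control library, obese replicate 2 or 3, treated replicate 2), with log2 fold changes of 3.64 to 5.44. That of Vsnl1 was also lost in 7 (any control library, obese replicate 3, treated replicate 2 or 3; 3.32 to 6.33) and that of Ntm in 4 (control replicate 3 or 4, obese replicate 3 or 4; 1.08 to 1.25). In treated against control hearts this list had 5 genes higher and 2 lower (45.5% and 18.2%, beside 7.43% and 8.39% of all tested genes). Among the 5, the calls of Cpne5, Gnao1, Igfbp5 and Rgs6 were each lost in 8 of 11 omissions, and that of Ntm in 5. Those of the lower genes, Popdc3 and Popdc2, were lost in 4 and 1. Gnao1, Igfbp5 and Rgs6 were named after their values were seen.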

How the data were processed

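Counts per Ensembl gene in 11 heart libraries were used as the authors deposited them. Per the submitters' processing notes, reads were handled with cutadapt, HISAT2 and StringTie on GRCm38; the sources used here do not state versions, annotation, strand or counting settings, or whether the counts are counted reads or estimates. Per the labels' protocols, total RNA was isolated with TRIzol and sequenced as paired Illumina reads. Symbols, positions and exon lengths came from GENCODE for GRCm38.

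Genes were filtered with filterByExpr (minimum count 10, minimum total 15), scaled by TMM and fitted together by edgeR's robust quasi-likelihood test (version 4.0.16, R 4.3.3; glmQLFTest), with a term for each of the 3 groups. Benjamini-Hochberg adjustment ran over 23779 genes with a threshold of 0.05, and the common biological coefficient of variation was 0.259. Standard errors were derived from the size of the log2 fold change and the root of its F statistic, and log2 CPM used a prior count of 1. The fit was also run on counts simulated from its own dispersion estimates, without the differences in make-up seen between these libraries. That run cannot show how well the fit suits these data. The members, related lists, marker lists and alternatives were chosen with earlier results of these data known. All 9 members were named; from each related list the 2 genes with the smallest p in obese against control were named, with Nalcn, Unc79, Hcn3, Gja1, Tbx5 and Tbx18 always, and from each marker list the most abundant gene. Some genes that this rule takes are not reported here. Likeness was Pearson's r of log2 CPM, the 2 highest per member. Alternatives were other scalings and filters, fits of the 2 groups compared, a replicate block, DESeq2 1.42.0, limma voom (limma 3.58.1), the intronic share or atrial level as a covariate, and omitted libraries. The labels do not say that libraries came from separate animals, and p-values therefore cover only differences among these libraries, which can be technical. Libraries of 1 group differed by 30.8 to 123 times the sampling variance (chi-square per degree of freedom), so none was treated as a repeat.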

Additional observations from a re-analysis of the deposited data

Results flagged for a closer look

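In groups of 4 libraries, a single library stood apart from the other 3 in 3 of 18 member groups screened, where the gap to its neighbour exceeded 0.829 of the group's range. Chance alone marks about 1 in 20 such groups. Hcn2 was at 15.6 CPM in control replicate 3, against 10.7 to 11.4 CPM in the other control libraries (gap 0.852 of the range). Cacna1h was at 125.6 CPM in obese replicate 3, where the rest of the obese group lay at 20.7 to 37 CPM (0.844), and this library also held the most atrial markers of the obese group. Unc80 was at 0.2916 CPM in control replicate 3, against 0.212 to 0.218 CPM in the other control libraries (0.922), on 26 counts against 14 to 15.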

How the results depend on the processing

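Over the alternatives run, 591 of 621 fold changes of the 9 genes moved by less than the spread between libraries of a group and 30 by more. In obese against control, 4 of the 9 were called (7166 of all tested genes). With limma voom 2 were called (7022 of all), and with the intronic share as a covariate 0 (121 of all). In treated against control, 7 were called (3760 of all tested genes), but 3 with no low-count filter (2775 of 41491) and 2 by limma voom (3622 of all). With the intronic share or the atrial level as a covariate 0 were called (510 and 2630 of all), so calls were lost over the whole series too. Omitting 1 library gave 4 to 5 calls in obese against control and 1 to 7 in treated against control. Over all tested genes it gave 4917 to 8153 and 1011 to 4652. In treated against obese, 0 of the 9 were called in every alternative run. Of the related genes 17 were called in obese against control, 27 by library totals alone, 0 with the intronic share, and 9 to 22 with 1 library omitted. Beside these stand 7166, 10021, 121 and 4917 to 8153 of all tested genes. In treated against control 17 were called, 28 by library totals alone, 10 with no low-count filter and 10 by limma voom (3760, 7300, 2775 and 3622 of all tested genes). It was 3 with the intronic share, 10 with the atrial level, and 6 to 22 with 1 library omitted (510, 2630, and 1011 to 4652 of all). The cause of these changes was not tested.

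The correlation of the deviations from the group means of same-numbered libraries ran from -0.408 (control 2 with treated 2) to 0.562 (obese 1 with treated 1). It was 0.471 for obese 3 with treated 3 and 0.072 for obese 2 with treated 2. Libraries of different number were not compared, so these values cannot show whether libraries pair by number. With a replicate block, 4, 0 and 5 of the 9 genes were called in obese against control, treated against obese and treated against control. The same fit called 19, 0 and 15 related genes, beside 7112, 0 and 2690 of all tested genes. Counting precision was lowest for Unc80 in control libraries, with 14 to 26 counts, although these libraries were the deepest, and for Hcn3 and Cntn6, which were near 0.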
